A study of Homo sapiens with 6 samples.

Results

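The 45 genes described here build or regulate the contacts between epithelial cells. They comprise 12 claudins, 10 other tight junction genes, 10 desmosome genes, 6 cell polarity genes, 4 genes for membrane-anchored serine proteases and their inhibitors, and 3 connexin genes. They were selected by gene name, and all 45 names were found among the 35856 genes of the deposited table. RNA-seq was performed on HCCLM3 cells, a human hepatocellular carcinoma line with high metastatic capacity, to ask which transcripts change when the long non-coding RNA LINC00862 is overexpressed. The control group, NC, held 3 libraries of HCCLM3 cells that received the empty vector. The LINC00862 group held 3 libraries of HCCLM3 cells that received the plasmid carrying full-length LINC00862. Nothing in the labels says whether the libraries of a group came from separate cultures, so the p-values measure the spread between these libraries, which may be technical.

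Tight junctions seal the space between neighbouring epithelial cells. Claudins form their strands and set which ions pass, occludin and the other MARVEL-domain proteins organise the strands, and zonula occludens (ZO) scaffolds and cingulins tie them to actin. Desmosomes join cells mechanically by linking desmosomal cadherins, through plakoglobin, plakophilins and desmoplakin, to intermediate filaments. The Crumbs, Par and Scribble complexes set apical-basal polarity, and connexins form gap junction channels. In hepatocytes, tight junctions seal the bile canaliculus.

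LINC00862 itself had 11, 21 and 6 counts in NC and 145, 121 and 76 counts in LINC00862. Its log2 fold change was 3.22 (SE 0.53, adjusted p = 0.000583, edgeR quasi-likelihood test), in the direction of the labels. Its FPKM (fragment counts scaled by transcript length and library size) stayed low, at 0.0214 to 0.0884 in NC and 0.312 to 0.530 in LINC00862. RBM47, an RNA-binding protein gene that the study follows, rose by 5.40 on the log2 scale. Libraries held 58241123 to 68229070 counts, and 20741 genes passed the filter on low counts and were tested. Spearman correlations of FPKM across genes were 0.896 to 0.909 within groups and 0.754 to 0.767 between them. A very large part of the transcriptome differed between the groups. Both groups carry the label HCCLM3, and whether their cells share 1 origin was not tested, since the gene-level table holds no genotype, so a fold change here compares these libraries as labelled. Of all genes tested, 34.4% were called up and 29.8% were called down in LINC00862 at an adjusted p under 0.05, and of the 14792 protein-coding genes tested the shares were 32.2% and 36.9%. FPKM values did not overlap between the groups for 71.1% of the genes tested. The median log2 fold change was 0.11 over all genes and −0.11 over protein-coding genes, and other scalings placed the median of all genes between −0.05 and 0.32.

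The hepatocellular label was checked against 10 hepatocyte markers. In NC, ALB, the gene for albumin, was at 0 counts in 2 of 3 libraries, TTR was at 0 in every library, and the summed FPKM of the list was 2.94 to 3.46. In LINC00862, the sum was 539 to 619, nearly all of it from FGB, and 7 of the 8 tested markers were called up, whereas APOA1 and APOA2 stayed at or near 0 in both groups. The remaining marker, SERPINA1, the gene for alpha-1 antitrypsin, fell from 1.11 to 1.53 FPKM in NC to 0.0658 to 0.144 FPKM in LINC00862 (log2 fold change −3.55, SE 0.36). In NC, SERPINA1 and FGB (1.68 to 1.88 FPKM) supplied most of the low summed level. Of 9 epithelial markers, 7 were called up and none down, with sums of 199.6 to 293 FPKM in NC and 371 to 441 in LINC00862. KRT8, not called, was lower in every LINC00862 library, at 72.8 to 97.5 FPKM in NC and 50.0 to 69.2 in LINC00862. With KRT18 (120 to 189 FPKM in NC), it supplied nearly all of the NC sum. Of 10 mesenchymal markers, 8 fell and none rose, with sums of 788 to 819 FPKM in NC and 11 to 11.6 in LINC00862. Among 5 endothelial and 5 blood cell markers, CDH5 and CD14 were called up and the others were not called. These lists moved with the results below, and their part in them was not tested. In bulk RNA, fewer cells of a type and less RNA per cell cannot be told apart.

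Of the 45 junction and polarity genes, 41 were tested, 27 were up-regulated, 11 were down-regulated and 3 were not called, and CLDN6, CLDN14, JAM3 and GJB1 had too few counts to be tested. Up calls were 65.9% and down calls 26.8% of the 41 tested, beside 32.2% and 36.9% of tested protein-coding genes. These genes and the marker lists were chosen with earlier results of these data known. A difference from the background is therefore not independent of that choice. The counts of calls by role given below have the same background. Rises of at least 4-fold were common, with 19 of the 41 genes, beside 16.4% of tested protein-coding genes. Falls of that size, with 6 of the 41, were near the 12.0% of tested protein-coding genes. The median log2 fold change of the 41 genes, which leaves out the 4 with few counts, was 1.68, and the range was −8.98 to 11.41. FPKM values of the groups did not overlap for 37 of the 41 genes (90.2%), beside 71.1% of all genes tested. LINC00862 was higher for 26 of them and lower for 11. In NC, 20 of the 45 genes had a mean FPKM of at least 1, and in LINC00862 32 did. That level was reached in both groups by 17 genes, in LINC00862 alone by 15, in NC alone by 3 (CLDN11, PPL and PKP2), and in neither by 10.

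**Figure D1:**
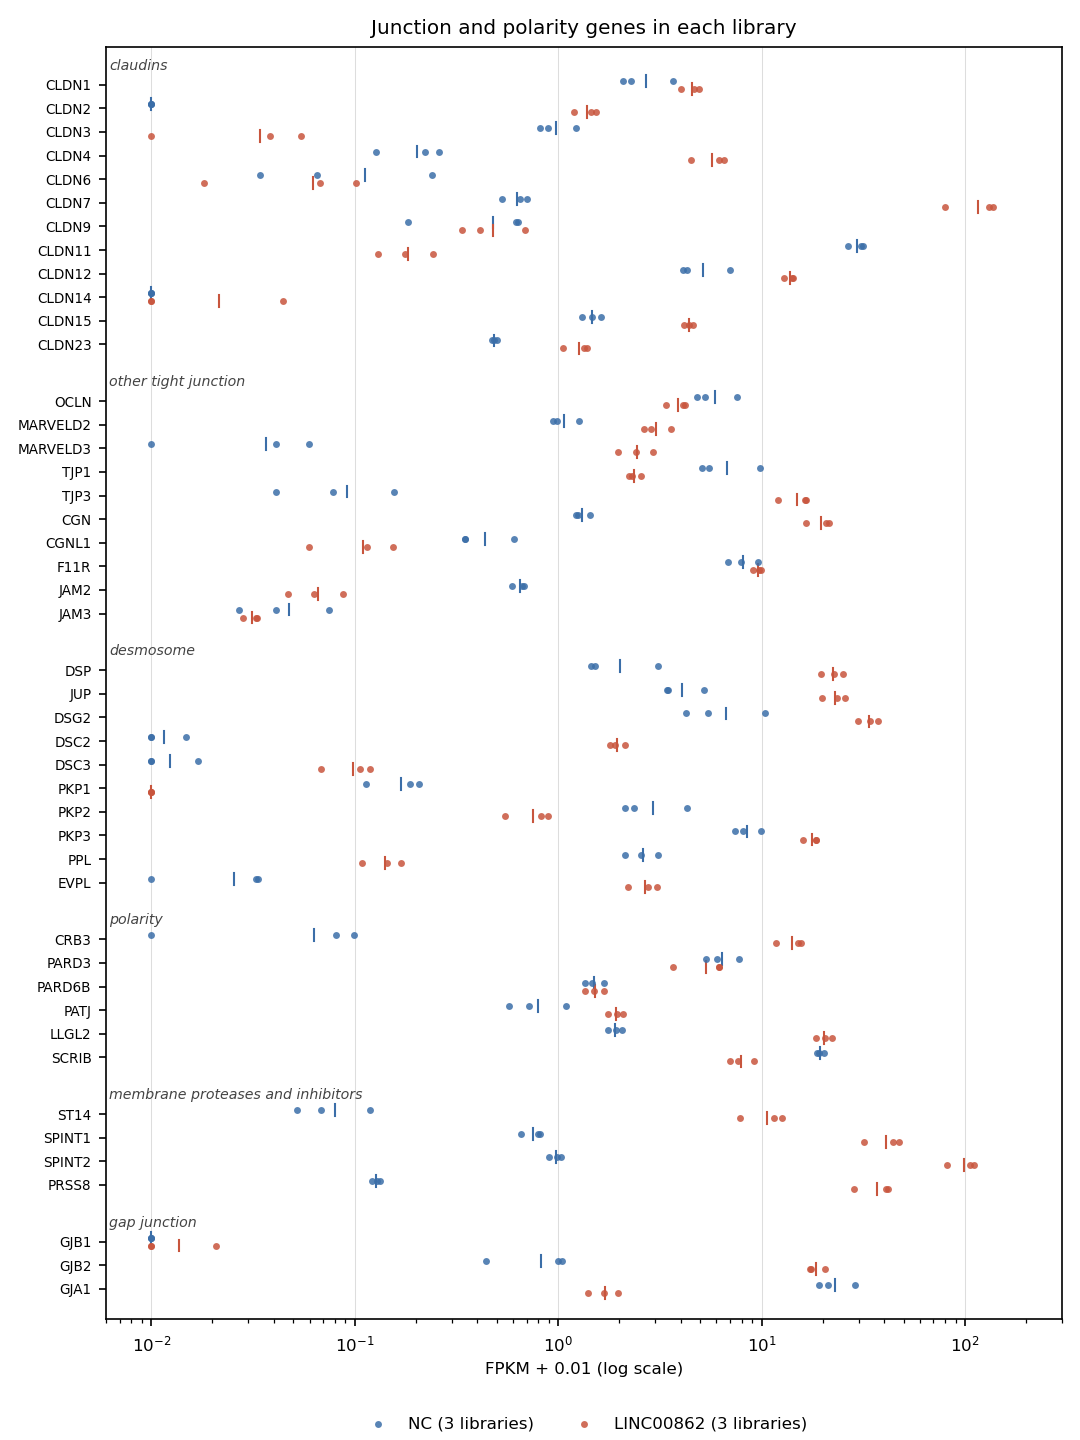
FPKM plus 0.01 (log axis) of each of the 45 genes in each library, grouped by role. Points are libraries, vertical ticks are group means, blue is NC and red is LINC00862, with 3 libraries each. The groups are fully apart for 37 of the 41 tested genes, beside 71.1% of all genes tested. The 4 protease and inhibitor genes are higher in every LINC00862 library.

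The highest-expressed genes changed places. Ordered by mean FPKM, NC was led by CLDN11 (29.6 ± 2.75, SD, n = 3), GJA1 (23.0 ± 5.08) and SCRIB (19.4 ± 0.907). In LINC00862, the order was led by CLDN7 (116 ± 31.4, SD, n = 3), SPINT2 (99.4 ± 15.3), SPINT1 (41.1 ± 8.16) and PRSS8 (37.1 ± 7.40). Compared within libraries, SPINT1 was above PRSS8 in every LINC00862 library. CLDN7 was below SPINT2 in LINC00862 library 3 and above it in the others, so their order was not consistent. In NC, GJA1 was below SCRIB in library 3 and above it in the others. CLDN7 ranked 27 and CLDN11 ranked 1 of 45 in NC, and CLDN11 ranked 35 in LINC00862.

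**Figure D2:**
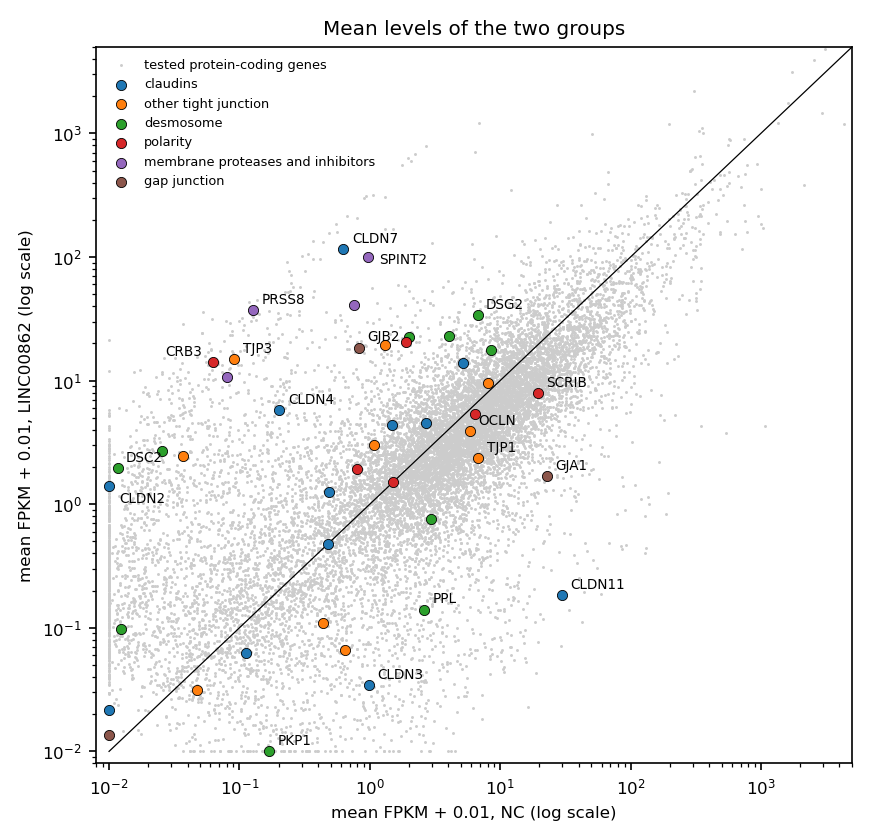
Mean FPKM plus 0.01 in NC (x axis) and LINC00862 (y axis), both on log scales, for tested protein-coding genes (grey) and the 45 genes (coloured by role), with the line of equal levels. CLDN7, SPINT2 and PRSS8 lie far above the line, and CLDN11, GJA1, PPL and CLDN3 lie far below it.

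Promoter sequence is shown for 6 of these genes because their levels moved in opposite directions or because they carry many copies of one motif. CAGGTG is the E-box bound by the SNAI and ZEB repressors of epithelial genes, and on the other strand it reads CACCTG. AACCGGTT is a binding motif of the grainyhead-like activators. RefSeq starts (GRCh38.p14) were matched for 28 of the 45 genes, giving 41 windows of the 250 bases before a start. An E-box of this form, on either strand, was found in 13 of the 41 windows (31.7%) and in 17.5% of the 35116 windows of all genes. By gene, it was found for 9 of 18 up-regulated and 2 of 7 down-regulated genes with a window, and for 20.6% of all genes with a window. The down-regulated genes with it were TJP1 and OCLN, and the call of OCLN was marginal. At least 3 copies were found in 2 of the 41 windows and in 0.464% of all windows. AACCGGTT was found in none of the 41 windows and in 0.117% of all windows. The member windows were also richer in CpG, with a median of 19 CpG per window against 11 over all windows. These are counts of letters and say nothing of binding. E-boxes are in capitals, each sequence runs 5′ to 3′ on the strand of its gene, and the last base printed is the one before the start. CRB3 (chr19:6464021-6464270, plus strand, up-regulated) held 5 copies, the first base of each at 228, 208, 147, 89 and 60 bases before the start. The start of CLDN7 with more copies (chr17:7262479-7262728, minus strand, up-regulated) held 4, and the other CLDN7 start held none. OCLN (chr5:69492297-69492546, plus strand, down-regulated with a marginal call) held 1. CLDN3 (chr7:73770271-73770520, minus strand, down-regulated), its neighbour CLDN4 (chr7:73830746-73830995, plus strand, up-regulated) and CLDN11 (chr3:170418618-170418867, plus strand, down-regulated) held none.
CRB3: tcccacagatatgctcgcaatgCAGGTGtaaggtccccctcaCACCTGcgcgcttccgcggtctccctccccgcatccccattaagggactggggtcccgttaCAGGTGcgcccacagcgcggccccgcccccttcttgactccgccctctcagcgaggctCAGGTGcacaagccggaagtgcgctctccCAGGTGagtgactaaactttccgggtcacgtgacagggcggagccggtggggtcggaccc
CLDN7: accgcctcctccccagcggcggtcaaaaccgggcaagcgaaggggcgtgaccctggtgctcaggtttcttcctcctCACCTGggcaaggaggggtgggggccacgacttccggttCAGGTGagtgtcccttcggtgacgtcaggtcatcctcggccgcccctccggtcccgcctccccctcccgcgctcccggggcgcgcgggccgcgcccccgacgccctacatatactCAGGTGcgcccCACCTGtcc
OCLN: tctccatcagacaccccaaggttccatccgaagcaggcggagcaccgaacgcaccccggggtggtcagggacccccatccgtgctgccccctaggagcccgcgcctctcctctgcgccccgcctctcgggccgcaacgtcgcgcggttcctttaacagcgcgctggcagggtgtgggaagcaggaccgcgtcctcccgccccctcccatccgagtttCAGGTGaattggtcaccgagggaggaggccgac
CLDN3: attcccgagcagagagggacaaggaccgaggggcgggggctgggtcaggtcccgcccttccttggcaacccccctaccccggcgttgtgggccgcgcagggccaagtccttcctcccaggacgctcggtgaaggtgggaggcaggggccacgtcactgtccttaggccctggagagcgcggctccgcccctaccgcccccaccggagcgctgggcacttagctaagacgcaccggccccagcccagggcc
CLDN4: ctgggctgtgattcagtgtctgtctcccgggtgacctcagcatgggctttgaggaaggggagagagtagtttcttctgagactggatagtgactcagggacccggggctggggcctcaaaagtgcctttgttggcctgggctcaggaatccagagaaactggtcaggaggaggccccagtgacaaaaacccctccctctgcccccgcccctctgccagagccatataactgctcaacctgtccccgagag
CLDN11: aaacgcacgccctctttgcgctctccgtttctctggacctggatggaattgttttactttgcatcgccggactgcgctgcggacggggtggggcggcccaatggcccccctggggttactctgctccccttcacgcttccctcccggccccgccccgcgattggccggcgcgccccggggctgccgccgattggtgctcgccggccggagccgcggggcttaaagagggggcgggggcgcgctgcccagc

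The claudin set was remodelled. Of the 12 claudins, 7 rose, 2 fell, CLDN9 was not called and 2 were not tested. CLDN7, a claudin of many simple epithelia, was at 0.639, 0.694 and 0.522 FPKM in the NC libraries and at 137, 132 and 80.0 FPKM in the LINC00862 libraries. This was the highest level of any of the 45 genes in LINC00862 (log2 fold change 7.68, SE 0.26, adjusted p = 6.37e-08), and LINC00862 library 3 was lower than the other two. CLDN7 overlaps ELP5 on the opposite strand, whose counts averaged 2201 in NC and 1779 in LINC00862. CLDN11, the claudin of myelin and of the Sertoli cell barrier, was at 30.8, 26.5 and 31.5 FPKM in NC and 0.168, 0.12 and 0.233 FPKM in LINC00862. It had by far the highest claudin level in NC and fell by 7.21 on the log2 scale (SE 0.29, adjusted p = 1.46e-07). Of the 50-base words in CLDN11 transcripts, 17.1% also occur in transcripts of another annotated gene, so some of its reads could have been assigned elsewhere.

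CLDN3 and CLDN4, paralogs that bind the Clostridium perfringens enterotoxin, are annotated 29.3 kb apart on chromosome 7 with no listed gene between them (CLDN3 at 73768997 to 73770270, minus strand; CLDN4 at 73799542 to 73832684, plus strand; GRCh38). They moved in opposite directions. CLDN3 counts were 68, 102 and 76 in NC and 3, 0 and 4 in LINC00862, with FPKM of 0.803, 1.22 and 0.885 and 0.0283, 0 and 0.0445. CLDN4 was at 0.251, 0.211 and 0.117 FPKM in NC and 6.14, 6.51 and 4.51 FPKM in LINC00862. The log2 fold changes were −4.97 (SE 0.76, adjusted p = 0.000395; −5.67 without LINC00862 library 3) for CLDN3 and 5.05 (SE 0.28, adjusted p = 7.36e-07) for CLDN4, and neither pair of groups overlapped.

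CLDN2, which forms cation- and water-permeable pores, was at 0 counts in all 3 NC libraries and at 398, 325 and 272 counts (1.52, 1.44 and 1.19 FPKM) in LINC00862. Against a floor of 3 counts over the NC group, this is at least 316-fold higher relative to the library totals. CLDN2 overlaps MORC4 on the opposite strand, and MORC4 counts averaged 198 in NC and 1948 in LINC00862. CLDN12 was at 6.98, 4.31 and 4.12 FPKM in NC and 14.2, 14.3 and 12.8 FPKM in LINC00862 (log2 fold change 1.61, SE 0.18). It shares 12.6% of its 50-base words with transcripts of other genes, among them the same-strand genes GTPBP10 and CDK14. CLDN15, a pore-forming claudin of the intestine, was at 1.46, 1.3 and 1.62 FPKM in NC and 4.4, 4.59 and 4.13 FPKM in LINC00862 (log2 fold change 1.75, SE 0.19). These 3 claudins were higher in every LINC00862 library than in any NC library. CLDN1, the claudin of the epidermal barrier and a hepatitis C virus entry factor, was at 3.68, 2.09 and 2.28 FPKM in NC and 4.63, 4.9 and 4.03 FPKM in LINC00862, and CLDN23 at 0.489, 0.461 and 0.476 and 1.38, 1.33 and 1.05 FPKM. They rose by 0.94 (SE 0.21) and 1.56 (SE 0.29) on the log2 scale, and CLDN1 was no longer called when tested against a change of 2-fold. CLDN9 was at 0.173 to 0.624 FPKM in NC and 0.327 to 0.674 FPKM in LINC00862, with a 95% interval of −1.16 to 1.47 for its log2 fold change. CLDN6 had at most 27 counts in any library and CLDN14 at most 6.

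Summed over the 12 claudins, FPKM was 41.7 ± 4.0 in NC and 148 ± 34.0 in LINC00862 (SD, n = 3), a ratio of 3.54. CLDN11 made up 68.0, 70.7 and 74.4% of the sum in the NC libraries and 0.0989, 0.0724 and 0.215% in the LINC00862 libraries. CLDN7 made up 1.41, 1.85 and 1.23% in NC and 80.6, 79.7 and 73.6% in LINC00862. One claudin thus supplied most claudin transcript in each group, and it was a different one. Shares of this kind were computed for 28 genes in 7 sets of paralogs, and 21 of them did not overlap between groups. FPKM itself did not overlap for 71.1% of all genes tested. The shares of a set add up to the whole, so they are not independent of each other. With 3 libraries against 3, the smallest p of a two-sided exact permutation test is 0.1 (0.133 after Benjamini-Hochberg adjustment over the 28 shares), so no share could reach 0.05.

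Among the other tight junction genes, 5 rose, 4 fell and JAM3 was not tested. The ZO scaffold genes TJP1 and TJP3 moved in opposite directions. TJP1 (ZO-1), the general scaffold of tight junctions, was at 9.79, 5.49 and 5.08 FPKM in NC and 2.53, 2.31 and 2.22 FPKM in LINC00862, and TJP3 (ZO-3), an epithelial paralog, at 0.145, 0.0309 and 0.068 and 16.3, 16.5 and 12 FPKM. NC library 1 had the highest TJP1, and all NC libraries lay above all LINC00862 libraries. TJP1 fell by 1.33 (SE 0.22, adjusted p = 0.000567) and TJP3, which overlaps APBA3 on the opposite strand, rose by 7.65 (SE 0.41, adjusted p = 6.15e-07) on the log2 scale, and TJP3 by 8.28 without NC library 1.

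CGN, for cingulin, was at 1.24, 1.43 and 1.22 FPKM in NC and 20.6, 21.5 and 16.5 FPKM in LINC00862 (log2 fold change 4.07, SE 0.17, adjusted p = 1.48e-07). Its paralog CGNL1, for paracingulin, went the other way, from 0.337 to 0.599 FPKM in NC to 0.0494 to 0.144 FPKM in LINC00862 (log2 fold change −1.9, SE 0.41). The MARVEL-domain genes differed among themselves. MARVELD3 was at 0.0494, 0.031 and 0 FPKM in NC and 2.41, 2.93 and 1.96 FPKM in LINC00862 (log2 fold change 6.60, SE 0.68, or 7.30 without NC library 1), and it overlaps PHLPP2 on the opposite strand, whose counts averaged 1603 in NC and 443 in LINC00862. MARVELD2, for tricellulin, the protein of tricellular contacts, was at 1.26, 0.98 and 0.939 FPKM in NC and 2.84, 3.59 and 2.62 FPKM in LINC00862 (log2 fold change 1.68, SE 0.19). OCLN, for occludin, lies 48.0 kb from MARVELD2 on chromosome 5 and was at 7.56, 5.28 and 4.83 FPKM in NC and 4.08, 4.18 and 3.4 FPKM in LINC00862. OCLN was lower in every LINC00862 library, but its call was marginal (log2 fold change −0.42, SE 0.16, adjusted p = 0.0491) and was lost in 12 of 16 alternative analyses, among them without NC library 1 (−0.26). It shares 8.6% of its 50-base words with other transcripts, among them its pseudogene OCLNP1.

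The junctional adhesion molecules, immunoglobulin-type receptors at the junction, also diverged. F11R (JAM-A), the epithelial form, was at 9.62, 6.83 and 7.93 FPKM in NC and 9.93, 9.74 and 9.09 FPKM in LINC00862. The groups overlapped, the call was small (log2 fold change 0.42, SE 0.14, adjusted p = 0.0274) and it was lost in 11 of 16 alternatives. F11R shares 35.8% of its 50-base words with other transcripts, chiefly a same-strand overlapping gene whose counts averaged 58.0 in NC and 592 in LINC00862. JAM2, an endothelial form that overlaps ATP5PF on the opposite strand, fell from 0.586 to 0.668 FPKM in NC to 0.0371 to 0.0772 FPKM in LINC00862 (log2 fold change −3.28, SE 0.39). JAM3 was at most 0.0648 FPKM in any library.

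**Figure D3:**
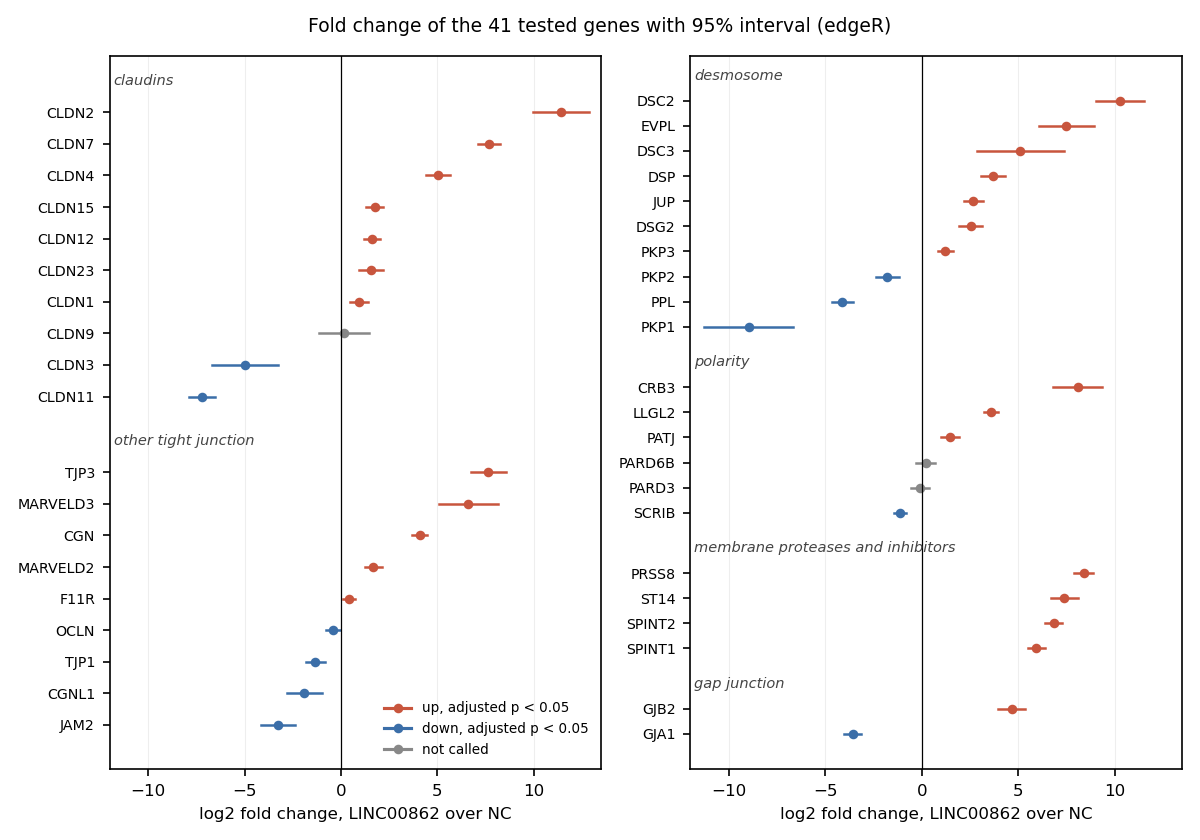
Log2 fold change of LINC00862 over NC (points) with its 95% interval (lines) from edgeR for the 41 tested genes, by role, with red for genes called up, blue for genes called down and grey for genes not called. Every role except the proteases and inhibitors holds at least 1 gene on each side of 0.

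In the desmosome set, all 10 genes were called, 7 up and 3 down, beside 32.2% up and 36.9% down of tested protein-coding genes. DSG2, DSP and JUP all rose, as did both desmocollin genes, whereas PKP1, PKP2 and PPL fell. DSG2, the desmoglein of simple epithelia, was at 10.4, 5.47 and 4.26 FPKM in NC and 34.3, 37.3 and 29.9 FPKM in LINC00862. DSP, for desmoplakin, which binds intermediate filaments, was at 3.07, 1.5 and 1.44 FPKM in NC and 22.7, 25.1 and 19.7 FPKM in LINC00862. JUP, for plakoglobin, was at 3.42, 3.48 and 5.23 FPKM in NC and 23.6, 25.6 and 19.8 FPKM in LINC00862. Each was higher in every LINC00862 library than in any NC library, with log2 fold changes of 2.53 (SE 0.27), 3.68 (SE 0.27) and 2.67 (SE 0.22), and NC library 1 was the highest NC library for DSG2 and DSP.

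DSC2, the desmocollin of simple epithelia, had 0, 4 and 0 counts in NC and 1817, 1760 and 1508 counts in LINC00862 (1.9, 2.13 and 1.8 FPKM). It was close to silent in NC, and its fitted log2 fold change was 10.27 (SE 0.54, adjusted p = 6.13e-07). That value depends on a few NC counts: it was 13.78 without NC library 2 and 9.68 without NC library 1. DSC3, 16.0 kb away, was also higher, at 0, 0 and 4 counts in NC and 35, 56 and 50 in LINC00862, but reached at most 0.110 FPKM, with a log2 fold change of 5.12 (SE 0.99) that was 8.64 without NC library 3. DSC2, DSC3 and DSG2, all in the desmosomal cadherin cluster of chromosome 18, moved in the same direction. Of the other genes there, DSG4 was called up (log2 fold change 9.17, SE 1.18) but reached at most 0.302 FPKM. DSG1, DSG3 and DSC1 had too few counts to be tested. Desmocollin shares could not be computed because both genes were at 0 in NC library 1.

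The plakophilins and plakins split. PKP3, the most widespread epithelial plakophilin, was at 7.4, 8.08 and 9.89 FPKM in NC and 18.4, 18.5 and 16 FPKM in LINC00862 (log2 fold change 1.22, SE 0.17), and PKP2, the plakophilin of heart and simple epithelia, was at 4.29, 2.36 and 2.11 FPKM in NC and 0.817, 0.882 and 0.537 FPKM in LINC00862 (log2 fold change −1.78, SE 0.27). PKP3 made up 73.4 ± 9.90% of the summed FPKM of PKP1, PKP2 and PKP3 in NC and 96.0 ± 0.684% in LINC00862 (SD, n = 3). With PKP4, a related armadillo protein gene that was not called, added to the sum, PKP3 made up 43.5 ± 8.22% in NC and 73.1 ± 1.15% in LINC00862. PKP1, of stratified epithelia, had 81, 42 and 74 counts in NC and none in LINC00862, at least 68.9-fold lower against a floor of 3 counts over the LINC00862 group. PPL, for the plakin periplakin, was at 3.1, 2.55 and 2.13 FPKM in NC and 0.135, 0.159 and 0.0981 FPKM in LINC00862. EVPL, for its binding partner envoplakin, was at 0, 0.0229 and 0.0234 FPKM in NC and 2.2, 3.06 and 2.77 FPKM in LINC00862. These partners moved in opposite directions, by −4.12 (SE 0.24) for PPL and 7.48 (SE 0.63) for EVPL on the log2 scale, and EVPL by 6.88 without NC library 1. EVPL overlaps TEN1-CDK3 on the opposite strand, whose counts averaged 2325 in NC and 970 in LINC00862.

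Among the polarity genes, 3 rose, 1 fell and 2 were not called. CRB3, the epithelial Crumbs protein of the apical membrane, had 0, 10 and 8 counts in NC and 1845, 1648 and 1261 counts in LINC00862, or 0, 0.0888 and 0.0709 and 15.1, 15.6 and 11.7 FPKM (log2 fold change 8.09, SE 0.57, adjusted p = 3.20e-06). Its log2 fold change was 7.47 without NC library 1 and 8.68 without NC library 2. CRB3 went from near absence to a level in LINC00862 above that of PARD3. It overlaps DENND1C on the opposite strand, and DENND1C counts averaged 24 in NC and 1375 in LINC00862. PATJ, a scaffold of the Crumbs complex, was at 1.08, 0.708 and 0.563 FPKM in NC and 1.94, 2.08 and 1.74 FPKM in LINC00862 (log2 fold change 1.47, SE 0.21). LLGL2, the epithelial lethal giant larvae paralog of the basolateral Scribble complex, was at 1.74, 2.04 and 1.92 FPKM in NC and 20.4, 22.2 and 18.5 FPKM in LINC00862 (log2 fold change 3.58, SE 0.16, adjusted p = 2.53e-07). SCRIB, of the same complex, went the other way, from 19.1, 18.6 and 20.4 FPKM in NC to 7.69, 9.14 and 7.01 FPKM in LINC00862 (log2 fold change −1.12, SE 0.14, adjusted p = 0.000124). DLG1 and LLGL1 of this complex, from the further lists, also fell, by 1.59 (SE 0.18) and 1.09 (SE 0.19) on the log2 scale. So the Scribble complex genes were not changed in one direction, and among these only LLGL2 rose. PARD3 was at 7.78, 5.33 and 6.05 FPKM in NC and 6.14, 6.17 and 3.65 FPKM in LINC00862, and PARD6B at 1.67, 1.34 and 1.46 and 1.48, 1.35 and 1.68 FPKM. The 95% intervals of their log2 fold changes, −0.54 to 0.35 for PARD3 and −0.28 to 0.68 for PARD6B, do not reach a change of 2-fold in either direction.

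The 4 protease and inhibitor genes all rose, with no overlap between groups. ST14, for matriptase, was at 0.109, 0.0583 and 0.0423 FPKM in NC and 11.6, 12.6 and 7.86 FPKM in LINC00862. PRSS8, for prostasin, the protease that works with matriptase in epithelia, was at 0.119, 0.124 and 0.111 FPKM in NC and 41, 41.7 and 28.6 FPKM in LINC00862. Their log2 fold changes were 7.40 (SE 0.32, adjusted p = 1.91e-07) and 8.41 (SE 0.22, adjusted p = 2.63e-08). SPINT1 (HAI-1), a Kunitz-type inhibitor of both proteases, was at 0.804, 0.645 and 0.783 FPKM in NC and 47.2, 44.3 and 31.8 FPKM in LINC00862. SPINT2 (HAI-2) was at 0.897, 0.974 and 1.03 FPKM in NC and 110.2, 106 and 82 FPKM in LINC00862. These inhibitors rose by 5.94 (SE 0.20) and 6.84 (SE 0.20) on the log2 scale, and their summed FPKM was 1.71 ± 0.0953 in NC and 141 ± 23.4 in LINC00862 (SD, n = 3). SPINT2 held 56.5 ± 3.71% of that sum in NC and 70.9 ± 1.04% in LINC00862. LINC00862 library 3 was the lowest of its group for all 4 genes. SPINT1 overlaps SPINT1-AS1 on the opposite strand, whose counts averaged 3 in NC and 475 in LINC00862.

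GJA1 and GJB2 moved in opposite directions. GJA1 (connexin 43), the widespread connexin of mesenchymal and many other cells, was at 28.8, 21.2 and 19.1 FPKM in NC and 1.97, 1.68 and 1.4 FPKM in LINC00862 (log2 fold change −3.59, SE 0.19, adjusted p = 5.42e-07). GJB2 (connexin 26), a connexin of hepatocytes and other epithelia, was at 0.992, 1.03 and 0.433 FPKM in NC and 20.6, 17.3 and 17.5 FPKM in LINC00862 (log2 fold change 4.67, SE 0.31, adjusted p = 2.28e-06). GJB1 (connexin 32), the main connexin of hepatocytes, had no counts in NC and 4 counts in 1 LINC00862 library. GJA1 made up 96.7, 95.4 and 97.8% of the summed FPKM of GJA1, GJB1 and GJB2 in NC and 8.73, 8.83 and 7.40% in LINC00862. That sum was 23.9 ± 5.30 FPKM in NC and 20.2 ± 2.07 FPKM in LINC00862 (SD, n = 3), and the groups overlapped. Over all 14 connexin genes of the lists, GJA1 made up 69.0 ± 2.32% in NC and 7.03 ± 0.613% in LINC00862, and the sums of 33.3 ± 6.16 and 23.8 ± 2.33 FPKM did not overlap. GJB2 made up 2.43 ± 0.886% and 77.6 ± 1.75% of this wider sum.

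The other genes of these structures, listed by role, moved in both directions. Of 66 further genes in the table, 51 were tested, and 17 rose, 20 fell and 14 were not called, with a median log2 fold change of −0.28. These are 33.3% up and 39.2% down of those tested, near the 32.2% and 36.9% of all tested protein-coding genes. By share of calls, the further genes as a set thus did not stand apart from that background. Large changes were more common in the set than in the background. Rises of at least 4-fold were called for 14 of the 51, beside 16.4% of tested protein-coding genes. Falls of that size were called for 10 of the 51, beside 12.0%. These differences from the background were not tested. None of 7 further claudins passed the filter on low counts. Of 14 further tight junction genes 4 rose and 5 fell, and of 3 tested further desmosome genes 2 rose. Of 13 tested further polarity genes 6 fell and 1 rose. Of the 5 nectin and afadin genes, which build adherens junctions, 4 fell and none rose. Of 6 tested further membrane proteases and their substrates 5 rose and 1 fell, and of 10 further connexins and pannexins 5 rose and 4 fell.

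Among further genes whose mean FPKM reached 1 in NC or LINC00862 and whose groups did not overlap, HPN, PRSS22, EPCAM, GJC3 and PANX2 had the largest called rises. HPN, for the liver-enriched protease hepsin, was at 0.0319, 0 and 0.0151 FPKM in NC and 11.7, 11.7 and 10.7 FPKM in LINC00862, and the protease PRSS22 at 0, 0.0224 and 0.0404 and 11.5, 11.8 and 11.2 FPKM. EPCAM, a substrate of matriptase that binds CLDN7, was at 0.53, 0.636 and 0.475 FPKM in NC and 169.5, 148 and 162 FPKM in LINC00862 (log2 fold change 8.34, SE 0.22). The connexin gene GJC3 and the pannexin gene PANX2 rose by 5.89 (SE 0.89) and 2.96 (SE 0.45) on the log2 scale, and these values were 9.64 for GJC3 without NC library 1 and 3.57 for PANX2 without NC library 3. Of the genes with the largest called falls under the same limits, the connexin GJC1 (−5.54, SE 0.20), the nectin NECTIN3 (−3.63, SE 0.24) and the angiomotin AMOTL1 (−3.27, SE 0.30) are given here. GJC1 (connexin 45) was at 7.67, 6.56 and 6.16 FPKM in NC and 0.104, 0.145 and 0.137 FPKM in LINC00862.

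Libraries within a group were not equal. Over the 34 genes with more than 30 counts in total in each group, NC library 1 had the highest NC value for 21, and LINC00862 library 3 had the lowest LINC00862 value for 29. Leaving out any 1 library left 26 or 27 of the 45 genes called up and 10 or 11 called down.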

How the data were processed

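Polyadenylated RNA of 6 HCCLM3 libraries was sequenced as paired reads after strand-marking (dUTP) library preparation. Per the labels and the submitters' processing notes, the tools included cutadapt 1.9, UMI-tools, HISAT2 2.0.4, StringTie 1.3.4d, edgeR and DESeq2, with the genome build hg38. The authors deposited 1 table with a raw read count and an FPKM per gene and library, and gene positions are those of that table. Whether the counting used strand is not given in the sources used here, so reads of genes overlapping on opposite strands cannot be told apart. A floor of 3 counts, used where a group had none, covers counting error only.

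Counts were filtered (filterByExpr), scaled (TMM) and tested with edgeR 4.0.16 (R 4.3.3, quasi-likelihood test) over all genes, and a gene was called at a Benjamini-Hochberg adjusted p under 0.05. Log2 fold changes are LINC00862 over NC. Levels compared between genes are FPKM. Paralog shares were computed from FPKM and tested by a two-sided exact permutation test (scipy 1.17.1). Words of 50 bases shared between genes were counted in GENCODE v29 transcripts. Alternatives were DESeq2 1.42.0, 3 other scalings, no count filter, a test against a 2-fold change, a false discovery rate of 0.01, limma 3.58.1 on log2(FPKM + 0.1) and log2(FPKM + 1), a replicate block, and leaving out each library. The edgeR, DESeq2 and limma steps were tested on simulated counts. Far fewer genes changed in the simulation than here, so it does not cover a difference as broad as this one.

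The 45 genes, the further lists and the markers were chosen with earlier results of these data known. Genes whose mean FPKM reached 1 in NC or in LINC00862 are given by library. Of the further lists, up to 5 rising and 5 falling genes were named, those with the largest called changes at that level and no overlap between groups. A few others are named beside a paralog, a cluster neighbour or a complex partner among the 45 genes. Some genes that this rule selects are not reported here.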

Additional observations from a re-analysis of the deposited data

How the results depend on the processing

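Across the 16 alternative analyses, 24 to 27 of the 45 genes were called up and 8 to 11 down. Leaving out 1 library gave 26 to 27 up and 10 to 11 down. Apart from 8 genes, every tested gene kept its direction and its side of the threshold. OCLN lost its call in 12 alternatives (log2 fold change −0.50 to −0.26 without 1 library) and F11R in 11 (0.32 to 0.50), and CLDN1, TJP1, PKP3 and SCRIB lost theirs only in the test against a 2-fold change. The uncalled genes CLDN9 (−0.26 to 0.43) and PARD3 (−0.20 to 0.085) changed sign without 1 library, and PARD3 was at 0.12 with upper quartile scaling. The claudin share of CLDN23 was 0.0406 points higher in LINC00862 when computed from counts and 0.285 points lower from FPKM. Counts are not divided by length. The median log2 fold change of the tested genes was 1.52 with library size alone and 1.9 with upper quartile scaling, beside −0.05 and 0.32 for all genes, and 1.42 and 0.98 with limma on log2(FPKM + 0.1) and log2(FPKM + 1), which shrink the changes of low genes. The wider plakophilin and connexin sets were chosen after seeing the data.

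Same-numbered libraries did not deviate together (correlations of −0.03, −0.02 and −0.002), so the numbers were not taken as pairs. With a replicate block, 26 genes were called up and 10 down.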
